A study of Rattus norvegicus with 8 samples.

Results

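Collagen genes were described in single-nucleus RNA sequencing of rat nodose ganglia, the vagal sensory ganglia whose neurons carry signals from the viscera to the brainstem. The set was taken from the gene list by name: 42 of 30560 genes had a symbol of the form Col, number, a, number, and the 41 with at least 50 UMIs (unique molecular identifiers, each counting 1 captured RNA molecule) over all nuclei were kept. The gene left out was Col10a1 with 49 UMIs, and those just inside the limit were Col7a1 with 77, Col17a1 with 82 and Col4a6 with 192. The ganglia came from experimentally naive Long Evans rats aged 8 weeks, 18 male and 18 female, with no transgene or treatment in any group. Right and left ganglia were kept apart, and each of the 12 pools held the ganglia of 1 side from 6 rats, giving 3 pools each of male left, male right, female left and female right. Nuclei of all pools were barcoded with a split-pool combinatorial kit and sequenced in 8 sublibraries.

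Collagens are proteins whose chains wind into a triple helix, and the genes fall into subfamilies by the structure the protein builds. Fibrillar collagens form the banded fibrils of connective tissue, type IV collagen forms the sheet of basement membranes, type VI forms beaded microfilaments around cells, and FACITs (fibril-associated collagens with interrupted triple helices) sit on the surface of fibrils. Multiplexins carry endostatin-like ends and lie in basement membrane zones, and transmembrane collagens span the membrane of the cell that makes them. In peripheral nerve and ganglia, Schwann cells and satellite glia are wrapped in a basal lamina, and fibroblasts and perineurial cells make the sheaths around fibres and ganglion.

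The pairs of collagen genes whose levels ran together over neuron types are shown first by their promoters, as RefSeq gives them on the rat assembly GRCr8 (the counts themselves were made on mRatBN7.2, so no coordinate is carried over). A promoter here is the 300 bases from 250 before to 50 after the annotated start. Capitals mark 3 short motifs searched on both strands, each counted also where it overlaps another: the GC box GGGCGG, the CCAAT box CCAAT and the TATA box TATAAA. The type IV genes Col4a1 (ENSRNOG00000016281, chr16:84885347-84885646, plus strand) and Col4a2 (ENSRNOG00000023972, chr16:84885471-84885770, minus strand) are read away from each other from starts 77 bases apart, and the 2 windows below share 176 bases on opposite strands.
Col4a1: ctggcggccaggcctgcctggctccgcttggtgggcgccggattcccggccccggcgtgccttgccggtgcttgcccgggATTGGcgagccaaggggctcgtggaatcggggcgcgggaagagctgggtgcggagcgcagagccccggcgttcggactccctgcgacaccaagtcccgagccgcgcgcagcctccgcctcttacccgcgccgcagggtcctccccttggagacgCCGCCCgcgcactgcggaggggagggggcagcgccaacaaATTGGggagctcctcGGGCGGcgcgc
Col4a2: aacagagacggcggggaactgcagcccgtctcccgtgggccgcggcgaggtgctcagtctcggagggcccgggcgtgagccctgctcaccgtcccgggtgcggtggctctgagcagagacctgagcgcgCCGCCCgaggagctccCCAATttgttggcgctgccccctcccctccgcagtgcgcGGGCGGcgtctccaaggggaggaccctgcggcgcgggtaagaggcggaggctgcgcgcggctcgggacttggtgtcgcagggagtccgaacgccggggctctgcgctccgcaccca
The type VI genes Col6a5 (ENSRNOG00000010663, chr8:115462795-115463094, minus strand) and Col6a6 (ENSRNOG00000023007, chr8:115352112-115352411, minus strand) are neighbours read in the same direction.
Col6a5: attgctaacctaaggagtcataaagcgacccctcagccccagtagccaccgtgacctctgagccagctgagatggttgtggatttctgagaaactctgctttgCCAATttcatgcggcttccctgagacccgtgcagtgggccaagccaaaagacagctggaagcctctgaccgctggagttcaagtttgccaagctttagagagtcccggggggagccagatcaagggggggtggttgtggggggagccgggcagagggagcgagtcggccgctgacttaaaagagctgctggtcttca
Col6a6: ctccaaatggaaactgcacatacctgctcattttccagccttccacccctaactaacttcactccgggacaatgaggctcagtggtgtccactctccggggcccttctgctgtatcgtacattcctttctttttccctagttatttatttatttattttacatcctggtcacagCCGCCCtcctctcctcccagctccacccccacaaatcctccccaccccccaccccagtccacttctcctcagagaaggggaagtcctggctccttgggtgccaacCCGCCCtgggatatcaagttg
The Col4a1 window was 75.0% G and C, and the Col6a6 window 53.3%. A promoter entry was found for 32 of the 41 genes. Each gene is counted by its first entry, whereas the shares over all promoters count every entry of a gene. Col6a5 had 2 entries, of which the first is printed. GGGCGG was present in 18 of those 32 (56.25%) against 33.1% of all 33469 promoters in the table, CCAAT in 10 (31.25%) against 37.5%, and TATAAA in 3 (9.38%) against 14.2%. A match is a description of the letters only.

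The table held 36741 nuclei, and pool totals ran from 7139364 to 19456287 UMIs. Nuclei were clustered here without any collagen gene, and clusters were named by likeness to marker lists, so every class name below means "-like". The classes were neurons (26730 nuclei), satellite glia (3139), myelinating Schwann cells (2384), endothelial cells (1027), skeletal muscle (701, of which 484 came from the second female right pool), fibroblasts (345) and mural cells (305), the last being the smooth muscle cells and pericytes of vessel walls. The 8 nodose neuron markers, among them P2rx2, summed to 1245 CPM (a gene's UMIs per 1000000 UMIs of the pool and class) in neurons and the 7 jugular neuron markers to 224. Y-linked transcripts went against the sex label in 2 pools, the first male left and the first female left, so results by labelled sex are given with and without them. Neuronal RNA was present in every class: the 12 neuron markers summed to 10776 CPM in neurons, 9697 in satellite glia, 8631 in muscle, 8386 in fibroblasts and 4083 in Schwann cells. The 13 fibroblast markers summed to 4294 CPM in Schwann cells (3560 to 5429 over pools) and 3857 in fibroblasts (3042 to 5051). Most of the Schwann cell sum was Abca8a (3234 CPM, against 1359 in fibroblasts), while Dcn stood at 93.9 and Pdgfra at 21.4 CPM there against 324 and 67.5 in fibroblasts. The 7 non-myelinating Schwann cell markers summed to 14847 CPM in the myelinating Schwann cell class (11781 to 17714 over pools). In satellite glia, the next class, they summed to 6590 CPM. The part of non-myelinating Schwann cells in the class called myelinating was not tested. A cell barcode that recurred in another sublibrary was carried by 3808 nuclei (10.4%).

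Collagen RNA had its highest mean share of all RNA in myelinating Schwann cells. The 41 genes together took 7576 ± 602 CPM there (mean ± SD over 12 pools), 5863 ± 1162 in fibroblasts and 2851 ± 344 in neurons, with satellite glia, mural cells, endothelial cells and muscle between 3805 and 4209. Every Schwann cell pool (6631 to 8432) lay above every neuron pool (2300 to 3345), and the Schwann cell and fibroblast pools (4826 to 8384) overlapped. A test of each class against the mean of the other 6 was possible for 31 genes (edgeR quasi-likelihood test on UMI sums per pool and class, with pool as a block, Benjamini-Hochberg adjusted p under 0.05 over 8006 genes). In myelinating Schwann cells 23 of 31 were higher, against 31.7% of all genes tested, and 5 were lower, against 31.4%. In neurons 3 were higher and 24 lower, against 37.0% and 37.9%, the reverse of the Schwann cell split.

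In satellite glia 10 of 31 were higher and 18 lower (all genes, 28.4% and 24.1%), in endothelial cells 9 and 5 (20.2% and 9.51%), and in mural cells 10 and 8 (16.5% and 19.8%). Fibroblasts had 12 higher and 0 lower (4.22% and 2.47%), with 17 at an unadjusted p under 0.05 in either direction. By DESeq2 13 were higher and 0 lower in fibroblasts, where it called 509 of all 8006 genes higher and 142 lower. Muscle had 2 higher and 10 lower (11.9% and 7.89%). The median log2 fold change of the 31 genes was 1.35 in Schwann cells and -1.89 in neurons, where the medians over all genes were 0.01 and -0.01, and it was 0.36 in fibroblasts (all genes, -0.02). Without TMM scaling the median of all genes moved by -0.14 in neurons, 0.11 in fibroblasts and 0.11 in mural cells. The share of all calls that were higher then went from 49.4% to 37.0% in neurons, from 63.1% to 82.8% in fibroblasts, from 45.5% to 56.7% in mural cells and from 60.1% to 43.7% in muscle. The p-values measure how far differences between classes vary from pool to pool, each of 6 rats. The pool block takes out differences shared by all classes of a pool.

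**Figure D1:**
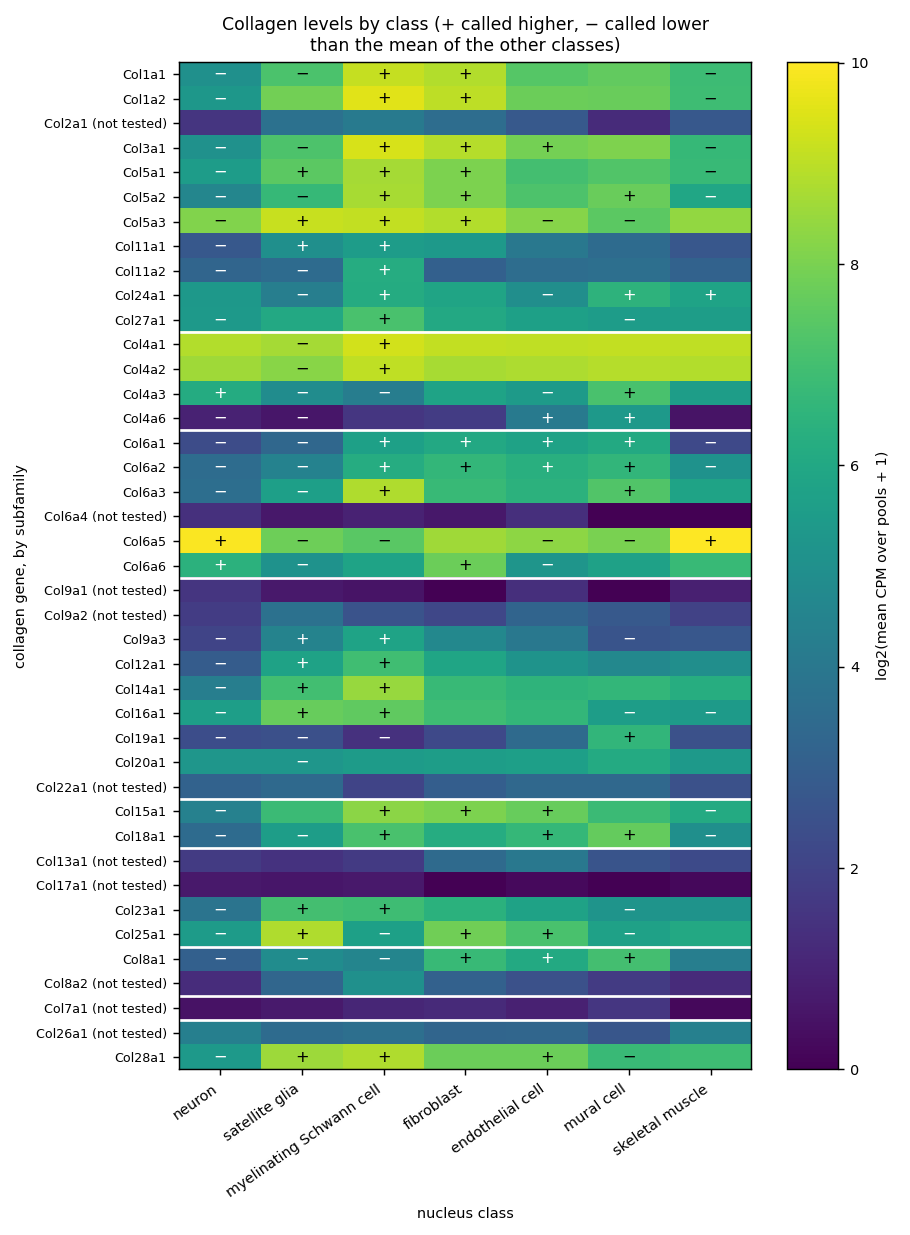
Mean level over pools of each of the 41 collagen genes (rows, grouped by subfamily) in the 7 named classes (columns), as log2(mean CPM + 1); plus and minus signs mark genes called higher or lower than in the other classes by the edgeR test. The Schwann cell column carries 23 plus signs and the neuron column 24 minus signs, and Col6a5 in neurons and Col25a1 in satellite glia stand out from that pattern.

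The fibrillar genes were high in Schwann cells: all 10 tested were higher there (all genes, 31.7%), 6 of 10 in fibroblasts (4.22%), and 9 of 10 were lower in neurons (37.9%). Col1a2, a chain of type I collagen, the main fibril of connective tissue, was at 755 CPM in Schwann cells (625 to 903 over 12 pools, median 756), 511 in fibroblasts (281 to 851, median 508) and 38.2 in neurons (25.2 to 62.5, median 38.1). Every Schwann cell and fibroblast pool lay above every neuron pool, and the Schwann cell and fibroblast pools overlapped. Its log2 fold change over the other classes was 2.13 (SE 0.06, adjusted p = 5.81e-59) in Schwann cells and 1.30 (SE 0.11, adjusted p = 6.47e-18) in fibroblasts by edgeR's quasi-likelihood test. The other type I chain, Col1a1, was at 561 ± 98.0 CPM in Schwann cells and 457 ± 198 in fibroblasts (log2 fold changes 2.04 and 1.45), where its 12 pools ran from 163 to 911. Col3a1, which mixes with type I in extensible tissue, followed the same order (669, 470 and 32.3 CPM in Schwann cells, fibroblasts and neurons).

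The minor fibrillar chains set the width of type I fibrils. Col11a2, one of them, was at 73.1 CPM in Schwann cells (53.0 to 94.3, median 72.6) and at most 11.6 on average in any other class. None of its Schwann cell pools reached down to the highest pool of another class, the highest being 49.1 in mural cells, and the log2 fold change was 2.68 (SE 0.15, edgeR adjusted p = 1.97e-33). Col5a1 and Col5a2, which nucleate type I fibrils, were higher in Schwann cells (log2 fold changes 1.65 and 1.98) and in fibroblasts (0.71 and 0.97). Col5a3 was distributed otherwise: its highest mean was in satellite glia (573 ± 64.2 CPM, log2 fold change 0.86, SE 0.06), close to Schwann cells (540 ± 76.4), and neurons still held 275 ± 35.5. Col24a1 and Col27a1 belong to a separate fibrillar branch. Col24a1 was higher in mural cells (88.2 CPM, log2 fold change 1.00), Schwann cells (70.3, 0.70) and muscle (54.7, 0.79, SE 0.20), and Col27a1 in Schwann cells (140.5 CPM, 1.39).

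Besides the fibroblast markers above, the myelinating Schwann cell marker list bears on these values. Its 9 markers summed to 11675 CPM in Schwann cells (10614 to 13077 over pools) and 2045 in fibroblasts (1125 to 3083). The fibroblast gene Apod (138 against 670 CPM) had, like Dcn and Pdgfra, a lower mean in the Schwann cell class. The part of shared RNA in either class was not tested. Within the Schwann cell class Col1a2 was at 715 CPM in the subcluster led by Prx and Bcas1 and 784 in the subcluster led by Grin2b, Adarb2 and Tll1.

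**Figure D2:**
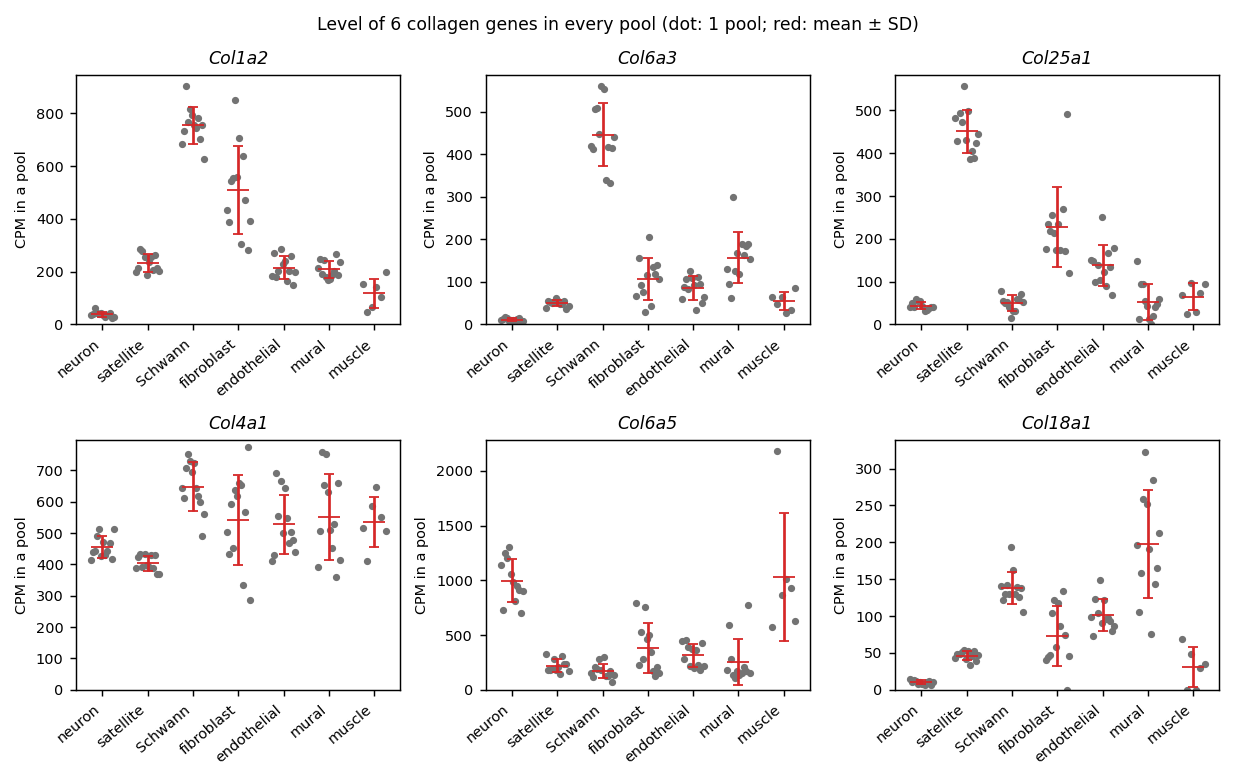
CPM of Col1a2, Col6a3, Col25a1, Col4a1, Col6a5 and Col18a1 in each pool (points) by class, with the mean and SD over pools (bars). Col6a3 in Schwann cells lies above every other class with no overlap, whereas Col4a1 lies within a narrow band in all 7 classes.

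Of the basement membrane network, Col4a1 and Col4a2, which together form the common type IV molecule, were near 300 to 650 CPM in every class. Col4a1 ran from 404 ± 24.0 in satellite glia to 649 ± 77.5 in Schwann cells, and Col4a2 from 302 ± 25.8 to 525 ± 56.4 in the same classes. The differences at these ends passed the edgeR test and were small: log2 fold changes of 0.46 and 0.45 in Schwann cells and -0.40 and -0.52 in satellite glia, all with an SE of 0.05. Neurons (456 and 381 CPM), endothelial cells, mural cells, fibroblasts and muscle did not pass the test for either gene.

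The 2 rarer type IV chains measured had their highest mean levels in mural cells. Col4a3, a chain of the tighter type IV network known from kidney filters, was at 138 CPM in mural cells (61.7 to 198, median 147), 70.5 in neurons (61.4 to 87.7, median 69.2) and 17.8 in Schwann cells (4.65 to 34.7, median 16.3). In mural cells 10 of 12 pools lay above every neuron pool, and every neuron pool lay above every Schwann cell pool. The log2 fold change was 1.71 (SE 0.18, edgeR adjusted p = 1.82e-14) in mural cells and 0.79 (SE 0.07, adjusted p = 3.19e-18) in neurons. Neurons held 7505 of the 8507 Col4a3 UMIs. In endothelial cells Col4a3 was at 42.5 CPM (22.7 to 70.1) and was called lower. Col4a6, a chain found around smooth muscle, rested on 31 UMIs in mural cells (40.8 ± 36.3 CPM, 0 in the lowest pool) and 29 in endothelial cells (16.1 ± 21.2). It was higher in both, by 4.07 (SE 0.48) and 1.91 (SE 0.44) on the log2 scale. Col4a4 and Col4a5, the partners of Col4a3, were not analysed here.

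The type VI chains split into the classical chains and the later ones. Col6a1, Col6a2 and Col6a3 make up the classical molecule. Col6a1 and Col6a2 were higher in mural cells, endothelial cells, fibroblasts and Schwann cells, with Col6a1 at 66.2 CPM in mural cells, 54.0 in endothelial cells and 64.1 in fibroblasts (log2 fold changes 1.58, 1.47 and 1.37) against 4.06 in neurons. Col6a3, the long chain of the molecule, had the largest Schwann cell difference of the tested collagen genes. It was at 446 CPM there (334 to 560, median 430), 157 in mural cells (63.1 to 300.1, median 158) and 11.4 in neurons (6.20 to 18.5, median 10.9). The lowest Schwann cell pool was above the highest mural pool, and the difference was 7.43-fold over the mean of the other classes (log2 2.89, SE 0.07, edgeR adjusted p = 4.66e-64).

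Col6a5 and Col6a6, the chains that can take the place of Col6a3, were both higher in neurons, where Col6a1, Col6a2 and Col6a3 were lower. Col6a5 was the collagen gene with most UMIs (113350, of which 105259 were in neurons), at 996 CPM in neurons (704 to 1300, median 967). The satellite glia pools (145 to 325) and the Schwann cell pools (72.2 to 297) all lay below the neuron pools. The neuron difference was 1.82 on the log2 scale (SE 0.08, edgeR adjusted p = 3.87e-40). After every nucleus was thinned to 1000 UMIs, 36.6% ± 4.17 of neurons held a Col6a5 UMI (56.3% unthinned, at a median of 2987 UMIs) and 10.8% of Schwann cells, at a median of 1590. Col6a6 was highest in fibroblasts at 218 CPM (105 to 411, median 195), 1.82 on the log2 scale above the other classes (SE 0.18, edgeR adjusted p = 1.06e-14), and was also higher in neurons (85.6 CPM, 0.61), where the pools reached 111 CPM and overlapped the lowest fibroblast pool. The 8 perineurial markers found in the files, 5 of them with a UMI in fibroblasts, summed to 3859 CPM there (2352 to 5479). The next class was neurons at 2251 CPM, with a UMI of all 8. The part of perineurial cells in the fibroblast class was not tested.

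Muscle nuclei had a mean Col6a5 level near that of neurons. Its level in the 6 muscle pools was 574, 628, 864, 928, 1011 and 2176 CPM, with the highest in the second male left pool, and the edgeR log2 fold change was 1.52 (SE 0.16, adjusted p = 3.14e-14). The neuronal sodium channel gene Scn10a stood at 1003 CPM in the same muscle nuclei and 1216 in neurons, and at 260 in Schwann cells, where Col6a5 was at 173. The part of neuronal RNA in the Col6a5 level of muscle was not tested.

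Of the 6 FACIT genes tested, 4 were higher in Schwann cells (all genes, 31.7%), 4 in satellite glia (28.4%), and 5 were lower in neurons (37.9%). Col14a1, which binds the surface of type I fibrils, was at 351 CPM in Schwann cells (276 to 428, median 360), 125 in satellite glia (94.6 to 152, median 123) and 18.6 in neurons. The Schwann cell pools lay above all pools of every other class, and the log2 fold change was 2.29 (SE 0.07, edgeR adjusted p = 1.69e-53). Col12a1, a related fibril-binding chain (123 CPM, 2.19), and Col9a3, a chain of type IX collagen of cartilage (54.9 CPM, 2.30), were higher in Schwann cells too, and less so in satellite glia (53.4 and 21.4 CPM, 0.78 and 0.73). Col16a1, which occurs in small fibrils near basement membranes, was higher in satellite glia (206 ± 35.2 CPM, 1.32) and in Schwann cells (190 ± 32.3, 1.24), whose difference from each other was not tested.

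Col19a1, a FACIT chain made by smooth muscle and some neurons, was higher in mural cells alone among the 7 classes. It was at 95.6 CPM there (0 to 295, median 78.4) and at most 10.1 on average elsewhere, with a log2 fold change of 4.15 (SE 0.34, edgeR adjusted p = 2.42e-20). The mural pools were spread widely, and 70 UMIs lay behind the level. Thinned to 1000 UMIs, 6.18% ± 5.32 of mural nuclei and 0.33% of neurons held a Col19a1 UMI (14.7% unthinned in mural cells). Col20a1, a little-studied FACIT, differed little between classes: it ranged from 36.9 CPM in satellite glia to 68.2 in mural cells, and its single call was -0.29 in satellite glia.

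Col8a1, a short-chain collagen of vessel walls, was higher in mural cells (127 ± 88.7 CPM, log2 fold change 1.72, SE 0.25), fibroblasts (107 ± 48.7, 1.68, SE 0.25) and endothelial cells (66.1 ± 65.2, 0.84, SE 0.18) than in the other classes. Col18a1, the source of endostatin, was at 197 CPM in mural cells (75.3 to 323, median 194), 138 in Schwann cells (106 to 193, median 134), 101 in endothelial cells (72.7 to 149, median 97.0) and 10.2 in neurons. All pools of these 3 classes lay above every neuron pool and overlapped one another. Its log2 fold changes were 1.82 (SE 0.17), 1.35 (SE 0.09) and 0.77 (SE 0.12), all past the edgeR test. Col15a1, the other multiplexin, was higher in Schwann cells (306 CPM, 1.64), fibroblasts (264, 1.22) and endothelial cells (202, 0.79). The 10 endothelial markers summed to 3345 CPM in mural cells and 3534 in endothelial cells, with Pecam1 at 272 and 260, and the part of endothelial RNA in the mural levels was not tested.

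In satellite glia, the cells that wrap each neuron soma, both transmembrane genes tested were higher (all genes, 28.4%). Both were lower in neurons (all genes, 37.9%) and in mural cells (19.8%). Col25a1, the precursor of a peptide found in amyloid plaques, was at 451 CPM in satellite glia (387 to 556, median 437), 228 in fibroblasts (121 to 492, median 215) and 44.1 in neurons (31.7 to 60.3, median 41.6). The satellite glia pools lay above every neuron pool and all but 1 of the 12 fibroblast pools. Its log2 fold change was 2.47 (SE 0.07, edgeR adjusted p = 4.54e-59), and 37.2% ± 4.29 of satellite glia against 3.49% of neurons held a UMI after thinning to 1000 UMIs (67.9% unthinned in satellite glia). Col23a1 was higher in satellite glia (128 ± 15.7 CPM, 1.45) and in Schwann cells (120 ± 19.7, 1.39). Col28a1, a collagen known from basement membranes around peripheral glia, was higher in Schwann cells (448 ± 59.0 CPM, 1.68) and satellite glia (367 ± 43.5, 1.30), and stood at 42.0 ± 8.70 in neurons.

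For 10 genes the counts were too low for a test by class. Among them Col8a2 was at 31.3 CPM in Schwann cells (18.5 to 60.4, median 27.1) against 8.76 in satellite glia, the next class, with no overlap between their pools. Col2a1 (16.4 CPM in Schwann cells), Col13a1 (15.2 in endothelial cells), Col9a2 (12.3 in satellite glia) and Col26a1 (19.1 in neurons and 19.5 in muscle) had their highest means below 20 CPM. Col22a1 was at most at 9.70 CPM on average and Col6a4, Col7a1, Col9a1 and Col17a1 at most at 1.96, and they were not tested by class.

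Over 22 neuron subclusters, 28 collagen genes had enough counts for a test of each subcluster against the mean of the others (edgeR, 8970 genes). The genes and subclusters gave 616 pairs, of which 172 (27.9%) were called higher, against 26.1% of all such pairs over all genes, so the set as a whole was near the background. Subclusters are named by the genes that lead them, none of which is a collagen.

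Col6a5 was highest in 1 neuron subcluster. In the subcluster led by Cysltr2 and Gdpd4 it was at 3415 CPM (2237 to 4715 over 12 pools, median 3399), in the next, led by Itgae, Gpr65 and Chrm2, at 1516 (871 to 2124, median 1502), and in the lowest, led by Spp1 and Nefh, at 48.2 (11.3 to 92.1). The pools of the highest and next subclusters did not overlap, and 99.0% of the 1570 nuclei of the highest held a UMI. The log2 fold change was 3.48 (SE 0.06, edgeR adjusted p = 9.71e-154). Col4a3 was highest in the same subcluster, at 165 CPM (135 to 214, median 163; log2 fold change 2.44, SE 0.07). Col6a6 was highest in the subcluster led by Tafa4 and Esr1 (172 ± 35.7 CPM, 2.21) and next in the Cysltr2 and Gdpd4 subcluster (161 ± 25.3, 2.06).

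The type IV pair was highest in another subcluster. Col4a1 was at 1111 CPM in the Tafa4 and Esr1 subcluster (942 to 1317, median 1107), 709 in the subcluster led by Itm2a and Trpa1 (638 to 816, median 703) and 69.9 in the Spp1 and Nefh subcluster. The lowest pool of the first exceeded the highest of the next, and its log2 fold change was 2.35 (SE 0.04, edgeR adjusted p = 4.20e-155). Col4a2 followed with 861 ± 95.7 and 594 ± 74.8 CPM in the same order (2.07 and 1.43). Over the 22 subcluster means, Col4a1 and Col4a2, whose promoters are printed above, had a Pearson correlation of 0.97 and a Spearman correlation of 0.97 on log2(CPM + 1), and Col6a5 and Col6a6 of 0.91 and 0.86. Col25a1 and Col28a1 (0.94 and 0.87) came as close, while Col4a1 and Col6a5 gave 0.70 and 0.69. These are descriptions over subclusters of the same pools and libraries, which also differ in depth.

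**Figure D3:**
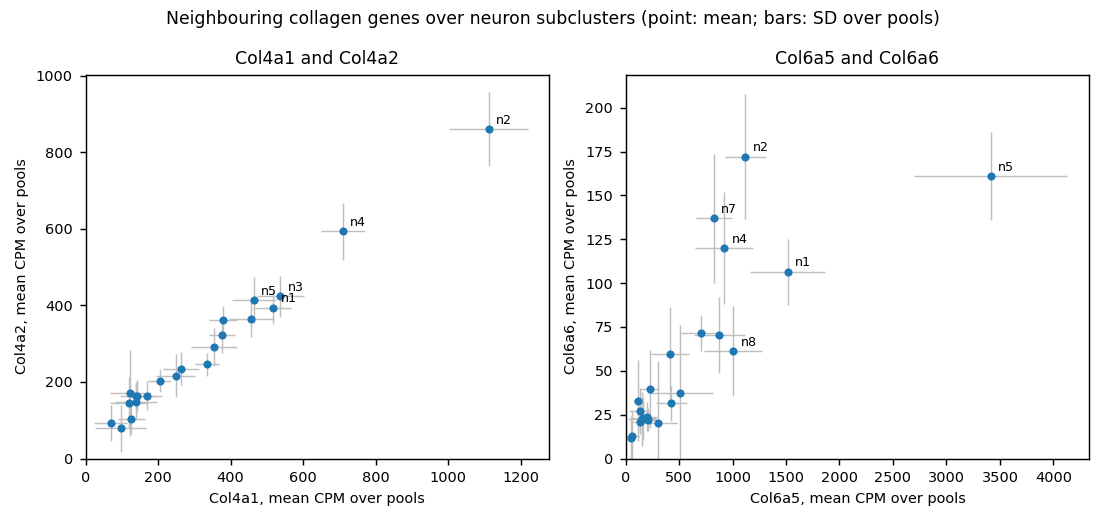
Mean CPM over pools in each of 22 neuron subclusters (points), with the SD over pools (bars), of Col4a1 against Col4a2 and of Col6a5 against Col6a6. The Spearman correlations of the 2 pairs are 0.97 and 0.86.

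The fibrillar genes of the separate branch were highest in other subclusters again. Col27a1 was at 186 CPM in the largest subcluster, led by Fhip1a and Kirrel3 (160.1 to 240.0, median 183), and at 170.0 in the subcluster led by Nxph1 and Slit2 (104 to 228, median 175), against 66.8 in the next and 7.73 in the lowest. The 2 high subclusters overlapped each other and not the third, whose highest pool was 99.1. Their log2 fold changes were 3.13 (SE 0.06) and 3.07 (SE 0.09, edgeR adjusted p = 6.68e-100). Col26a1 (60.8 ± 11.4 CPM, 2.74), a secreted collagen first known from testis and ovary, and Col22a1 (30.6 ± 8.77, 2.78), a FACIT of tissue junctions, were highest in the Fhip1a and Kirrel3 subcluster as well. Col24a1 was highest in the small subcluster led by Poteg and Kcnj6 (199 nuclei), at 297 CPM (180.3 to 473, median 296, over 7 pools), against 106 ± 30.3 in the next, led by Agtr1a (log2 fold change 3.00, SE 0.18).

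Col19a1 was also highest in the Poteg and Kcnj6 subcluster, at 108 CPM (26.6 to 232, median 96.8, over 7 pools), with a UMI in 22.1% of nuclei. It was next in the subcluster led by Tafa1 and Ccdc172 (60.6 ± 40.4 CPM) and the Spp1 and Nefh subcluster (32.0 ± 31.6). Their log2 fold changes were 5.38 (SE 0.34, edgeR adjusted p = 1.52e-37), 5.10 (SE 0.19) and 3.69 (SE 0.48). The next subcluster in this order, led by Csmd3 and Brinp3, was at 9.94 CPM. Col5a3 was highest in the Tac1 and Calca subcluster (637 ± 123 CPM, 1.45), and Col16a1 in the subcluster led by Tmem233 and Spon1 (167.0 ± 48.3 CPM, 2.30). Col20a1 had no call in any subcluster, with means from 16.6 to 53.5 CPM.

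**Figure D4:**
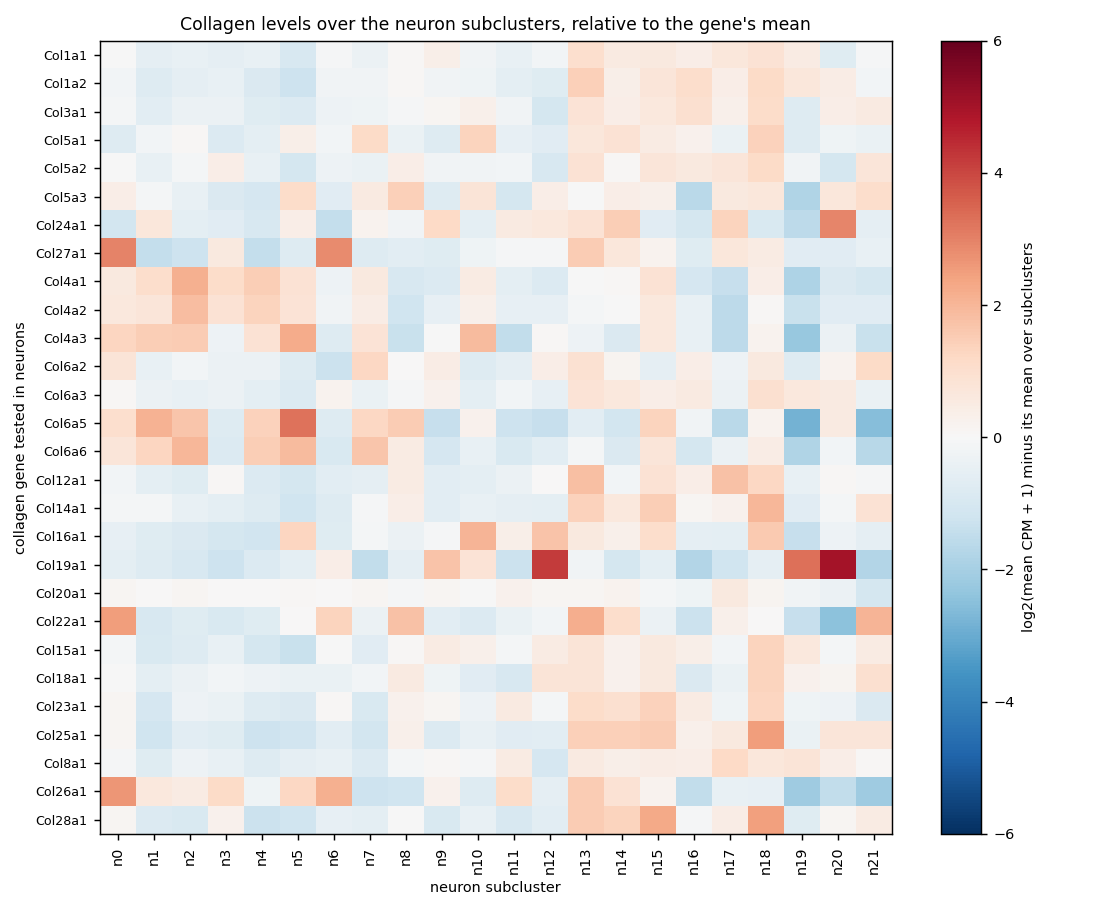
Level of each of the 28 tested collagen genes (rows) in the 22 neuron subclusters (columns), as the log2 difference from the gene's mean over subclusters. Col6a5, Col4a1, Col27a1, Col24a1 and Col19a1 each have their highest levels in 1 to 3 columns, and the n13, n15 and n18 columns are raised over most rows. By the edgeR test Col6a5 was called higher in 9 subclusters, Col4a1 in 10, Col27a1 in 7, Col24a1 in 9 and Col19a1 in 5.

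In 3 subclusters most collagen genes were higher at once: 19 of 28 in the subcluster led by Ddc, Dcc and Gata3 (21.7% of all genes), 21 in that led by Cartpt (36.7%) and 19 in that led by Chodl and Kcng1 (27.9%). The Chodl and Kcng1 subcluster had the highest Col25a1 (241 ± 56.9 CPM, log2 fold change 2.53, SE 0.11) and Col28a1 (199 ± 50.9, 2.49, SE 0.10) of the neurons, and the Cartpt subcluster followed for Col28a1 (174 ± 31.2, 2.34, SE 0.08). Both genes were higher in satellite glia in the comparison of classes. The 9 satellite glia markers summed to 823, 1002 and 1236 CPM in these 3 subclusters, and to 95.2 and 96.1 in the Itgae and the Cysltr2 subclusters. They summed to 836 CPM in the Agtr1a subcluster and 811 in the Nxph1 and Slit2 subcluster too, and to 1901 in the subcluster led by Pappa2, which was not tested. The median depth was 2404 UMIs in the Ddc subcluster, 9731 in the Cartpt subcluster and 6826 in the Chodl subcluster, against 2987 over all neurons. The part of glial RNA in these calls was not tested.

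Within the 2 glial classes the collagens differed between subclusters, a comparison chosen after seeing the data. Satellite glia led by Fbln2, Tyrp1 and Tnc were set against those led by Kctd12 and Efemp1: 11 of 24 collagen genes changed (27.0% of 6204 genes), 6 higher and 5 lower. Col25a1 was at 546 ± 61.4 and 461 ± 54.2 CPM in the 2 Tyrp1 subclusters and 327 ± 63.0 in the other (log2 difference 0.66, SE 0.06, edgeR adjusted p = 1.07e-14), and Col11a1 (0.81) and Col12a1 (0.51) were higher with it. Col28a1 was lower in the Tyrp1 subclusters (306 ± 33.7 and 319 ± 60.5 against 465 ± 75.3 CPM, -0.57, SE 0.06), as were Col8a1 (-1.02), Col4a1 (-0.34), Col4a2 (-0.31) and Col6a5 (-0.67).

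In Schwann cells led by Prx and Bcas1 against those led by Grin2b, Adarb2 and Tll1, 13 of 24 genes changed (16.0% of 4042 genes), 3 higher and 10 lower. Col24a1 was at 107 ± 31.3 CPM in the first and 44.9 ± 12.3 in the second (1.22, SE 0.16, edgeR adjusted p = 2.55e-09), and Col12a1 was higher by 0.65. Col6a3 (347 ± 70.8 against 523 ± 119 CPM, -0.55, SE 0.08), Col11a2 (-0.88), Col3a1 (-0.50), Col27a1 (-0.49) and Col28a1 (-0.39) were lower in the Prx and Bcas1 subcluster. The fibroblast markers summed to 3356 and 4830 CPM in these subclusters, and their part in the differences was not tested.

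No collagen gene passed the test by side or by labelled sex in any of the 6 classes with enough pools (edgeR, 6 pools against 6, the other factor as a covariate). By the numbers of rats and pools, the left and right pools of a sex came from the same 18 rats. The main fit did not pair them, so the 6 pools of a sex were not independent sets of rats. In neurons 0 of 39 changed by side, against 0.141% of 14179 genes, and 4 had an unadjusted p under 0.05 (0 called by DESeq2). The smallest p was that of Col4a3, at 68.9 to 87.7 CPM on the left (median 73.5) and 61.4 to 71.2 on the right (median 64.5). The sides overlapped, and the log2 difference of right over left was -0.22 (SE 0.06, adjusted p = 0.388). In fibroblasts Col6a5 ran from 168 to 789 CPM on the left (median 514) and from 128 to 463 on the right (median 250.2), a difference of -1.11 (SE 0.25, edgeR adjusted p = 0.113). It passed at adjusted p = 0.0160 to 0.0382 when the third male right, the first female right, the second female left or the third female left pool was left out, and at no other pool left out.

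By labelled sex, 0 of 39 collagen genes changed in neurons, against 0.0917% of all genes, although 17 had an unadjusted p under 0.05 (2446 of 14179 over all genes) and the median of the 39 was -0.24 (all genes, 0.000573). Col16a1 was at 41.0 to 68.3 CPM in male pools (median 56.0) and 34.3 to 48.4 in female pools (median 41.1). The ranges overlapped, with a log2 difference of female over male of -0.46 (SE 0.11, edgeR adjusted p = 0.0766), and Col24a1 (-0.40, adjusted p = 0.0770) and Col25a1 (-0.41, adjusted p = 0.0795) came next. Without the first male right pool Col16a1 passed the edgeR test (-0.54, adjusted p = 0.0166). Without the 2 pools whose Y-linked transcripts go against the label, 0 of 39 were called by edgeR, 16 had an unadjusted p under 0.05 and the median was -0.27. Col16a1 was then at -0.46 (adjusted p = 0.123), Col24a1 at -0.40 (adjusted p = 0.131) and Col25a1 at -0.50 (adjusted p = 0.0577). DESeq2 called 8 collagen genes lower in female-labelled neurons. Its share over all genes is not given here, so this count has no background beside it. Median marker sums in neurons also differed between the labelled sexes: 655 against 566 CPM for fibroblast markers and 376 against 318 for satellite glia markers in male and female pools. Their part in the collagen values was not tested.

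In the other classes the counts called were 0 by side (all genes, 0.0% in endothelial cells, fibroblasts, mural cells, Schwann cells and satellite glia) and 0 by labelled sex (0.0481% in satellite glia and 0.0% in the rest), by DESeq2 as by edgeR. At most 3 genes by side and 4 by labelled sex had an unadjusted p under 0.05 in any of these classes. Col1a1 in satellite glia had a difference by labelled sex of -0.41 (SE 0.12, edgeR adjusted p = 0.285), and without the 2 pools whose Y-linked transcripts go against the label it was -0.53 (adjusted p = 0.0497). Col6a5 in satellite glia had a difference by side of -0.46 (SE 0.11, edgeR adjusted p = 0.99999), which passed without the filter on low counts (adjusted p = 0.000182). Other genes with the smallest p in a class were Col8a1 by side in endothelial cells (-0.95, adjusted p = 0.943) and Col3a1 by side in mural cells (0.77, adjusted p = 0.997).

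**Figure D5:**
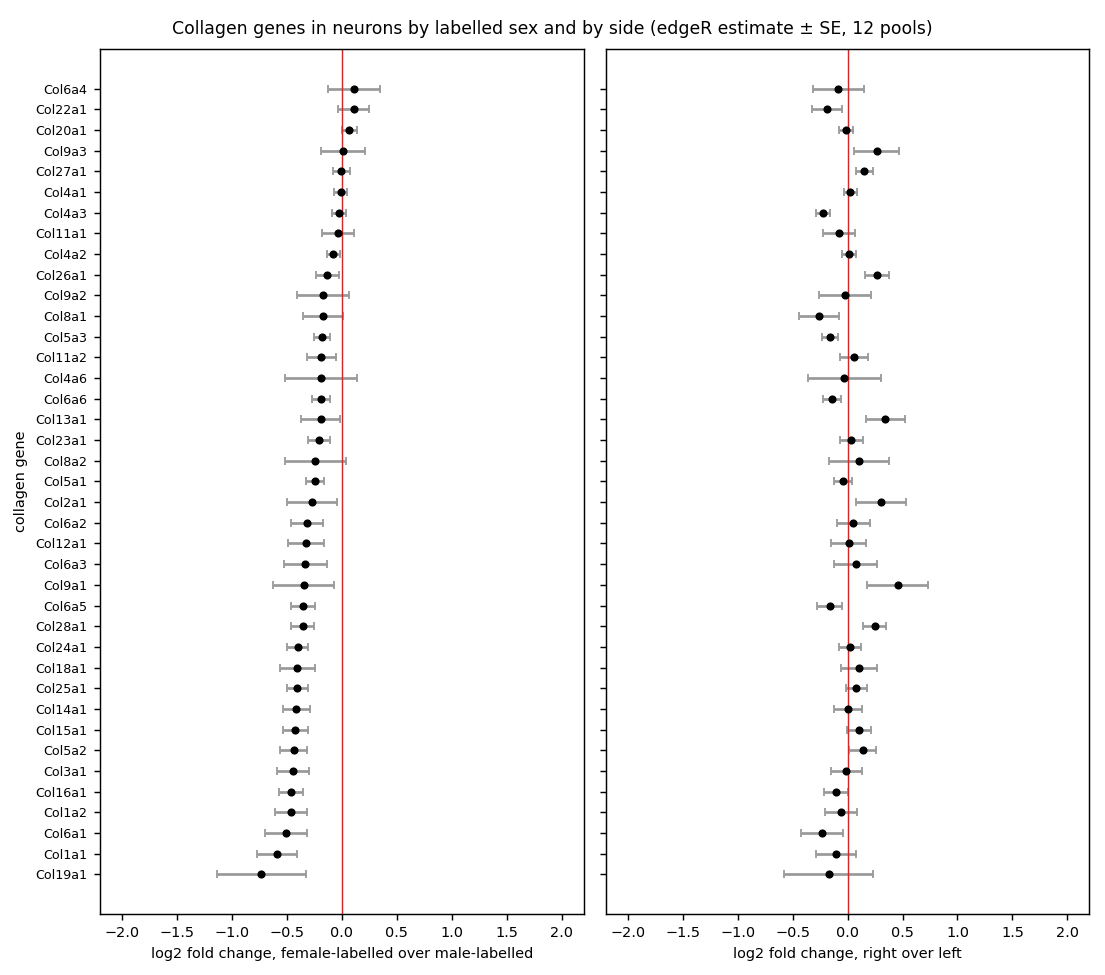
edgeR estimates with SE (bars) in neurons for the 39 tested collagen genes, female over male and right over left, on the log2 scale. Most estimates by labelled sex lie below 0, with a median of -0.24, and those by side lie around 0.

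Genes that process and bind collagen were taken from a list of 49, of which 28 were tested by class. In Schwann cells 12 were higher and 10 lower (all genes, 31.7% and 31.4%), so 22 of 28 changed, against 63.2% of all genes. Of the 4 tested genes for removal of propeptides, 3 were higher (all genes, 31.7%) and Adamts2 was lower (-0.33). The higher ones were Tll1, a tolloid-like protease and also a leading gene of 1 Schwann cell subcluster (log2 fold change 3.53, SE 0.10), Adamts3 (2.33, SE 0.15) and Bmp1, the main C-propeptidase (1.14). Serpinh1, the collagen chaperone (1.24, SE 0.10), the collagen receptor Ddr1 (1.39, SE 0.13) and the protease Mmp14 (0.90) were higher too. Plod2, a lysyl hydroxylase (-1.07, SE 0.10), Colgalt2, which adds galactose to hydroxylysine (-0.74), the export coat gene Sec23a (-0.47), the peroxidase Pxdn (-0.51) and the receptor Ddr2 (-0.61) were lower.

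In neurons 7 were higher and 14 lower (all genes, 37.0% and 37.9%), with Plod2 higher (1.53) and Serpinh1 lower (-2.83). In fibroblasts 5 were higher, against 4.22% of all genes: Adamts2 (1.91), Bmp1 (1.42), Ddr2 (1.16), P3h3 (0.77) and Pxdn (0.67). In mural and endothelial cells P3h2, a prolyl 3-hydroxylase of basement membrane collagen (2.94 and 2.23), and Itga1, a chain of a collagen-binding integrin (1.93 and 1.29), were higher, as was Loxl2, a cross-linking oxidase (1.94 in endothelial cells). Satellite glia had 8 higher and 8 lower (all genes, 28.4% and 24.1%). The largest increases there were those of Pxdn (1.60) and Mmp14 (1.21), and the largest decreases those of Tll1 (-2.61) and P3h2 (-1.88).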

How the data were processed

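The authors deposited raw UMI counts per nucleus and gene for the 12 pools over 8 sublibraries. The submitters' processing notes name the build mRatBN7.2, R 4.3.2 and Seurat 4.1.3; an aligner is not given in the sources used here. Collagen genes, lists and tests were chosen with earlier results of these data known. Of 36741 nuclei, 36740 passed (at least 300 genes, at most 5% mitochondrial UMIs). They were clustered without collagen, mitochondrial and Y-linked genes (scanpy 1.11.5, 3000 then 800 variable genes, 30 components, 20 neighbours, Leiden resolution 1) and named from 19 marker lists, by rules loosened after the clusters were seen; 2109 nuclei stayed unnamed. Scrublet called 2 doublets and is taken not to have worked, so none were removed.

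UMIs were summed per pool and class or subcluster (at least 10 nuclei, at least 6 pools, or 10 by side and labelled sex) and fitted with edgeR 4.0.16 (TMM, filterByExpr, quasi-likelihood test, Benjamini-Hochberg over all genes tested), tested on simulated data. A class fold change is against the equally weighted mean of the other classes. Alternatives were DESeq2 1.42.0, no TMM, no filter, a minimum of 20 nuclei, thinning to 1000 UMIs, Leiden 0.5 and 2, removing the 1868 nuclei with the highest doublet scores, leaving out each pool or both pools against their label, and a replicate block. Genes named are, per class, the up to 6 with the largest fold change called higher, the 10 largest pairs of gene and neuron subcluster, the smallest p by side and sex, and the 2 largest pathway genes per list; others named were chosen after their values were seen. No deposited column of values was left out of use (0).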

Additional observations from a re-analysis of the deposited data

Results flagged for a closer look

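In the groups of 4 to 10 pools, 28 were tested for a pool far from the rest by Dixon's ratio and 2 had one, where chance gives about 1 in 20. Col1a1 in Schwann cells of the male-labelled pools had its lowest value, 412 CPM, in the first male left pool, one whose Y-linked transcripts go against its label. Col6a5 in muscle had its highest value, 2176 CPM, in the second male left pool. Further nuclei stayed outside the named classes and carried collagen RNA: the cluster led by Kctd12 and Cdh19 at 4514 CPM over the 41 genes (1422 nuclei), the cluster led by F13a1 and Mrc1 at 4491 (275 nuclei), and the cluster led by Th and Nxph1 at 2432 (412 nuclei, median 6931 UMIs). No cause of these values was tested.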

How the results depend on the processing

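No result reversed. Thinning to 1000 UMIs left 5 collagen genes higher in endothelial cells (9 otherwise), 14 in a neuron subcluster (27), 95 pairs of gene and subcluster (172) and 12 pathway genes changed in Schwann cells (22); it uses fewer UMIs. Without the filter on low counts 9 genes were higher in neurons (3), 1 changed by side (0), Col6a5 in satellite glia (-0.44, adjusted p = 0.000182), and 11 by labelled sex (0). DESeq2 gave 1 gene higher in muscle (2) and 8 changed by labelled sex, and Leiden 2 gave 4 in muscle. Without the highest doublet scores 1 gene changed by side, Col6a5 in fibroblasts (adjusted p = 0.0376). Leaving out 1 pool gave 0 to 1 by side and 0 to 3 by labelled sex (3 without the first male right pool, 1 each without the second and the third female right pools), and 6 to 9 genes higher in endothelial cells. Without the 2 pools against their label 1 gene changed by labelled sex. Muscle could not be fitted with 1 of its 6 pools left out. Whether equal replicate numbers pair pools was not decided. Deviations correlated above 0.1 in 1 of 6 pairs by side and 3 of 6 by sex, and 2 and 4 of 12 pools correlated best with their own number. A weak correlation cannot show that the numbers do not pair pools. The check also kept the 2 pools against their label as labelled. The replicate block was fitted only by side and by labelled sex. It gave 5 genes changed by labelled sex, with no share over all genes beside them, among them Col16a1 in neurons (-0.45, edgeR adjusted p = 0.0209). The count by side did not move with it. Shares of nuclei with a UMI were, without thinning and at 2000 UMIs, 31.5% and 32.4% for Col6a6 in fibroblasts, 14.7% and 13.2% for Col19a1 in mural cells, 50.1% and 54.3% for Col6a3 in Schwann cells, 56.3% and 50.5% for Col6a5 in neurons, 67.9% and 55.1% for Col25a1 in satellite glia, and 52.0% at 2000 UMIs for Col6a5 in muscle. Col8a1 in endothelial cells missed the threshold at Leiden 0.5 (log2 fold change 0.35, adjusted p = 0.218) and Col24a1 in muscle under DESeq2 (0.59, adjusted p = 0.0676). Causes were not tested otherwise.

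Fibroblasts, mural cells and muscle held 305 to 701 nuclei, so genes under about 20 CPM rest on few UMIs there. Neuronal RNA in the other classes was not removed.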

Other observations

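Vessel collagens also differed by level between subclusters of the same class, which were not tested. In mural cells led by Myh11 and Acta2, the contractile genes of smooth muscle, Col19a1 was at 149 ± 93.4 CPM (9 pools), Col4a3 at 184 ± 64.7, Col8a1 at 183 ± 114 and Col18a1 at 263 ± 89.0. In the other mural subcluster, led by Acta2, Prrx1, Rgs5 and Notch3, the same genes were at 19.3 ± 15.2 (6 pools), 33.0 ± 21.4, 20.6 ± 34.8 and 126 ± 80.0, whereas Col1a2 was at 327 ± 83.6 against 144 ± 86.2 in the first. In endothelial cells led by Adgrl4, Col15a1 was at 440 ± 116 CPM (10 pools) against 143 ± 53.5 in those led by Cyyr1 and Prom1 (12 pools). Those led by Vwf and Eln had Col8a1 at 134 ± 123 over 5 pools, and 25.9 ± 32.0 in the Cyyr1 and Prom1 subcluster.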
